A study of Mus musculus with 12 samples.

Results

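The comparison set hearts given liproxstatin-1 before coronary ligation (Lip-1+MI) against hearts given ferrostatin-1 before the same operation (Fer-1+MI). Its members were the 3 samples that the labels place in each of these groups, 6 of the 12 samples of the series, and all genes of the deposited count table. The groups were Lip-1+MI, given liproxstatin-1 at 3 mg per kg per day; Fer-1+MI, given ferrostatin-1 at 1 mg per kg per day; MI, ligated without a compound; and Sham. Both compounds were given 24 h before the operation, in which the left anterior descending artery was tied off for good near its origin. The samples are ventricle tissue of wild-type male C57BL/6J mice aged 6 to 8 weeks, per the labels. The compounds were given at different doses, so compound and dose cannot be told apart in any difference given here. The labels name neither the time from ligation to collection nor a group given a compound without ligation, and they do not say that the 3 samples of a group come from 3 animals. The p-values then measure only the spread between these samples, which may be technical.

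Ferroptosis is a form of cell death driven by iron-dependent oxidation of membrane lipids, and it is held back by the enzyme Gpx4, which reduces lipid peroxides with glutathione. Both compounds are aromatic amines and act as radical traps in membranes, which interrupts the chain of oxidation. They share that action and differ in their scaffold: ferrostatin-1 is an ethyl benzoate that carries an amino and a cyclohexylamino group, and liproxstatin-1 is a spiroquinoxaline amine with a chlorobenzyl group. Both are widely used as tools to show that a form of injury depends on lipid peroxidation, and the comparison shows where the transcripts of ligated hearts differed between them.

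All gene identifiers in the files carry the prefix that Ensembl uses for rat, whereas the labelled species is mouse. The sources used here do not name a genome build. Total counts were 59.0 to 60.8 M in Lip-1+MI and 46.6 to 60.2 M in Fer-1+MI, and Fer-1+MI replicate 1 was the shallowest of the 6. Several heart muscle genes were abundant in all 6 samples. The lowest, median and highest values of Myh6, the fast cardiac myosin heavy chain, were 1099, 1132 and 1284 FPKM (fragments per kilobase, scaled for depth). Those of Actc1, cardiac actin, were 4475, 5288 and 5934 FPKM. Other heart muscle genes were abundant too, with 1955 to 2207 FPKM for Tnnt2, cardiac troponin T, and 651 to 834 FPKM for Myl2, a ventricular myosin light chain. Genes that are not of heart muscle were as abundant, with 1714 to 1941 FPKM for the collagen gene Col1a1, 4251 to 5075 FPKM for Mgp and 2593 to 3446 FPKM for Lcn2. The muscle genes Mb (myoglobin) and Ckm were far lower, at 16.1 to 33.8 FPKM and 33.3 to 50.9 FPKM. The beta-globin Hbb had 3.68 to 6.97 FPKM and the leukocyte gene Ptprc 3.05 to 4.14 FPKM. The T-cell gene Cd3e had no count in any of the 6 samples. That the samples are mouse ventricle rests on the labels alone. Whether these values are those of such tissue was not tested, which limits every statement on tissue or cell types below.

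Of 16910 genes tested with edgeR, 533 differed between Lip-1+MI and Fer-1+MI at an adjusted p under 0.05 and are called here, which is 3.15% of those tested. Of these, 295 were higher in Lip-1+MI (1.74%) and 238 were lower (1.41%). In counts scaled to the same library size (CPM), all 533 had no overlap between the 3 samples of each group, as did 18.8% of all genes tested. Most differences were small, and 434 of the 533 genes differed by less than 1.5-fold. At least a 2-fold difference was reached by 31 genes, 16 higher and 15 lower; 6 of these were at 0 counts in every sample of 1 group, so that their fold is not fixed by the data, and without them 12 were higher and 13 lower. The median log2 fold change over all genes was -0.00, and scaling by library size alone gave 531 calls, of which 234 were higher and 297 lower. The number of calls fell when most single samples of the 2 groups were left out. It was 311, 304 and 390 without Lip-1+MI replicates 1, 2 and 3, and 337 and 367 without Fer-1+MI replicates 2 and 3. Without Fer-1+MI replicate 1, the shallowest of the 6 samples, it was 551. The Spearman correlation of that sample with Fer-1+MI replicates 2 and 3 was 0.9944 and 0.9939, against 0.9953 between replicates 2 and 3. Of 13 genes of the mitochondrial chromosome, 7 were called lower without it, against 1 with it. What sets this sample apart was not tested. Among the 49 lists of genes set for this comparison, those of the aryl hydrocarbon receptor, cholesterol synthesis, fatty acid synthesis and lysosomes held many genes that were higher in Lip-1+MI, and that of fatty acid oxidation held many that were lower.

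**Figure D1:**
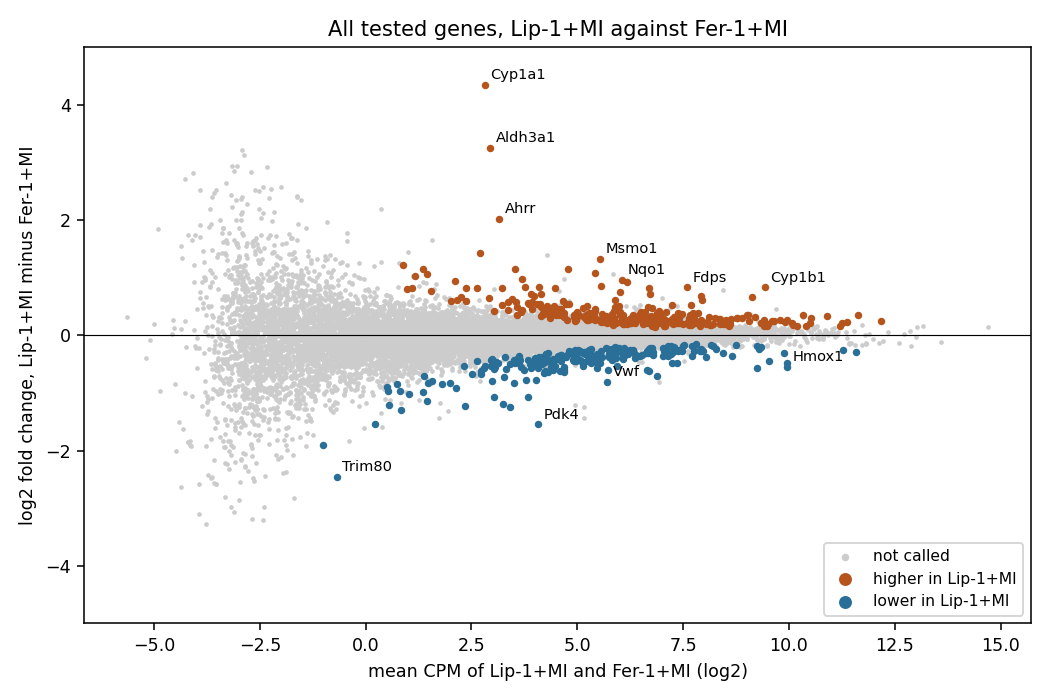
Each point is a tested gene, with the mean CPM of Lip-1+MI and Fer-1+MI on a log2 axis across and the log2 fold change, Lip-1+MI minus Fer-1+MI, on the vertical axis. Called genes are coloured (291 higher, 236 lower), genes at 0 in every sample of a group are left out, 6 called ones among them, and Cyp1a1 (4.34) and Trim80 (-2.46) lie at the ends of the called genes shown.

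The aryl hydrocarbon receptor (Ahr) is a transcription factor that binds planar aromatic molecules, pairs with its partner Arnt and switches on genes that oxidise such molecules; its target Ahrr is a repressor that closes the loop. The pair binds DNA with the core letters GCGTG. Sterol genes are switched on by another factor, SREBP2, which is released when membrane cholesterol is low and acts beside a factor that binds CCAAT. The promoters of Cyp1a1, Ahrr and Hmgcs1 are printed as examples from the lists described next. Cyp1a1 and Ahrr were among the largest rises, while several sterol genes rose by more than Hmgcs1. They are mouse sequences from RefSeq, build GRCm38.p6, of 300 bases each, matched by symbol, while the files' identifiers are rat. Capitals mark GCGTG in Cyp1a1 and Ahrr, and TCACNCCAC (a sterol element) and CCAAT in Hmgcs1, on either strand. Their places are chr9:57697363-57697662 on the plus strand, chr13:74292282-74292581 on the minus strand and chr13:119690101-119690400 on the plus strand.
Cyp1a1: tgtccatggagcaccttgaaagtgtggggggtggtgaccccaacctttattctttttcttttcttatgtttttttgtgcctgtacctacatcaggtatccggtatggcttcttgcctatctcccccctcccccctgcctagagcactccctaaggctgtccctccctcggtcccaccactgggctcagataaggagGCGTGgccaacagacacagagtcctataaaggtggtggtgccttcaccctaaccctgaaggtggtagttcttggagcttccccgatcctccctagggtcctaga
Ahrr: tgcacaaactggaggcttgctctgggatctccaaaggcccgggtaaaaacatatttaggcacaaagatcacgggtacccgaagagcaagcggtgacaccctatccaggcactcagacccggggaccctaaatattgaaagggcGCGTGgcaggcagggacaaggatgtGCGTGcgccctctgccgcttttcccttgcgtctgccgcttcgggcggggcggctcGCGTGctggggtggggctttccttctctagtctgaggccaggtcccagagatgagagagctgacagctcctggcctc
Hmgcs1: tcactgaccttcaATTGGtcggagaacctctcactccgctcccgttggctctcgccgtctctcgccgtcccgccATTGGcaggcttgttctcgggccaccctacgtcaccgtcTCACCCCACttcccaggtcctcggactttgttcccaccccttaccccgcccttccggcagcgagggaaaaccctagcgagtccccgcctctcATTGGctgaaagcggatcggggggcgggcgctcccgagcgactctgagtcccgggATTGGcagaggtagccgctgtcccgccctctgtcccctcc

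The Cyp1a1 window held GCGTG 1 time and the Ahrr window 3 times. GCGTG stood in 3 of the 4 promoters found for the aryl hydrocarbon receptor genes called higher, against 32.4% of all 32851 promoters in the table. The promoters of Arnt and Tiparp, which were not called, held it too. The longer TNGCGTG stood in 1 of the 4, that of Ahrr, and in 5.07% of all promoters. The Hmgcs1 window held TCACNCCAC 1 time and CCAAT 4 times. CCAAT stood in 12 of 14 promoters found for the sterol genes called higher, which belong to 12 of those 19 genes, against 37.4% of all promoters. It also stood in the promoters of Mvd, Mvk and Hsd17b7, sterol genes that were not called. TCACNCCAC stood in 1 of the same 14 promoters, that of Hmgcs1, and in 1.24% of all promoters. In this element the printed Hmgcs1 window is therefore not typical of the sterol genes called higher. A match describes letters in the window and says nothing of binding in these hearts.

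Aryl hydrocarbon receptor targets gave the largest rises. Of 10 listed genes 9 were tested, and 5 were higher in Lip-1+MI and none lower (55.6% called, against 3.15% of all genes). The median log2 fold change was 0.83. The 5 were Cyp1a1, Cyp1b1 and Aldh3a1, which oxidise aromatic compounds, hormones or aldehydes, Nqo1, a quinone reductase, and Ahrr. Cyp1a1 had 10.3, 13.5 and 16.2 CPM in Lip-1+MI, against 0.795, 0.742 and 0.453 CPM in Fer-1+MI. The groups lay far apart, and the MI and Sham hearts sat with Fer-1+MI, with 0.398, 1.14 and 0.639 CPM in MI and 0.526, 1.13 and 0.751 CPM in Sham. The log2 fold change of Cyp1a1 was 4.34 ± 0.33 (SE, adjusted p = 1.52e-06). Aldh3a1 had 11.4, 14.4 and 15.9 CPM in Lip-1+MI, against 1.17, 1.23 and 1.95 CPM in Fer-1+MI, a log2 fold change of 3.25 ± 0.25 (adjusted p = 7.62e-07). Ahrr had 12.4, 13.7 and 16.7 CPM in Lip-1+MI, against 3.56, 3.13 and 3.84 CPM in Fer-1+MI, a log2 fold change of 2.02 ± 0.16 (adjusted p = 3.78e-07). All 3 genes were expressed at low counts in Fer-1+MI and were high in every Lip-1+MI sample.

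Nqo1 and Cyp1b1 were already expressed in every group and differed by less. Nqo1 had 81.8, 91.6 and 88.9 CPM in Lip-1+MI, against 45.2, 45.04 and 44.3 CPM in Fer-1+MI (log2 fold change 0.96 ± 0.07, adjusted p = 7.59e-08). Cyp1b1 had 825, 842 and 974 CPM in Lip-1+MI, against 467, 467 and 549 CPM in Fer-1+MI (0.83 ± 0.07, adjusted p = 4.54e-06). The receptor itself had 18.8, 14.02 and 19.2 CPM in Lip-1+MI, against 21.0, 21.9 and 19.5 CPM in Fer-1+MI, and was not called (log2 fold change of Ahr -0.26 ± 0.10, adjusted p = 0.23). Neither its partner Arnt (-0.02 ± 0.06) nor the targets Tiparp (0.06 ± 0.06) and Ugt1a6 (0.19 ± 0.07) were called. Set against MI, whose samples both contrasts share, the log2 fold change of Cyp1a1 was 4.16 for Lip-1+MI (adjusted p = 1.7e-06) and -0.18 for Fer-1+MI (adjusted p = 0.86). For Lip-1+MI the same value was 3.53 for Aldh3a1, 1.61 for Ahrr and 0.95 for Cyp1b1. For Fer-1+MI it was 0.28 for Aldh3a1, -0.41 for Ahrr and 0.11 for Cyp1b1, with adjusted p of 0.16 or more in each. For Nqo1 both passed the threshold, at 1.38 for Lip-1+MI (adjusted p = 6.1e-10) and 0.41 for Fer-1+MI (adjusted p = 0.00076).

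**Figure D2:**
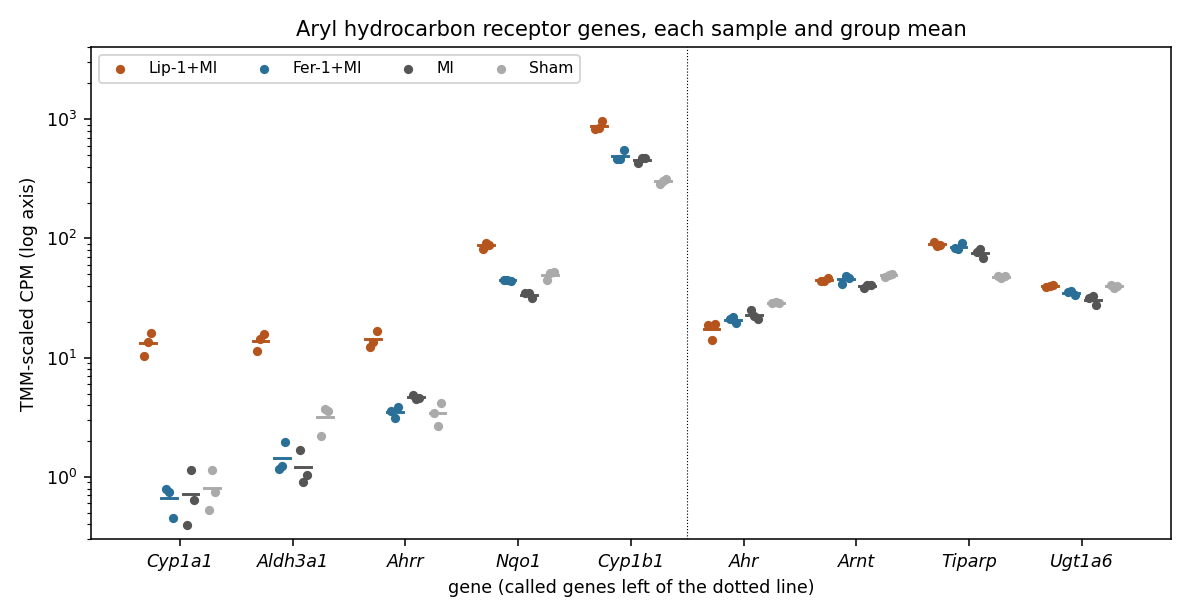
Points are the 12 samples and bars the group means, in TMM-scaled CPM on a log axis, for the 9 tested aryl hydrocarbon receptor genes. Cyp1a1, Aldh3a1, Ahrr, Nqo1 and Cyp1b1, left of the dotted line, were higher in Lip-1+MI than in Fer-1+MI with no overlap; Ahr, Arnt, Tiparp and Ugt1a6 were not called.

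Most genes of cholesterol synthesis were higher in Lip-1+MI. Of 24 listed genes, all tested, 19 were higher in Lip-1+MI and none was lower (79.2% called, against 3.15% of all genes). All 24 estimates were above 0, and the median log2 fold change was 0.70. The early steps were included: Hmgcs1, which makes HMG-CoA, had 119, 141 and 137 CPM in Lip-1+MI, against 77.4, 74.6 and 72.8 CPM in Fer-1+MI (0.82 ± 0.06, adjusted p = 1.9e-07). The isoprenoid and squalene steps were higher too. Fdps, which makes farnesyl diphosphate, had 257, 246 and 238 CPM in Lip-1+MI, against 141, 139 and 137 CPM in Fer-1+MI, the smallest adjusted p of the whole comparison (0.83 ± 0.05, adjusted p = 1.79e-08). Sqle, squalene epoxidase, had 90.4, 96.0 and 98.7 CPM in Lip-1+MI, against 52.1, 51.8 and 46.3 CPM in Fer-1+MI (0.93 ± 0.06, adjusted p = 2.5e-08). Among the late steps, Msmo1, a sterol methyl oxidase, had 62.7, 68.9 and 66.1 CPM in Lip-1+MI, against 31.4, 24.5 and 22.9 CPM in Fer-1+MI (1.33 ± 0.09, adjusted p = 7.59e-08). In each of these genes the lowest Lip-1+MI sample stood above the highest Fer-1+MI sample.

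Further enzymes called higher were Idi1 (1.08), Tm7sf2 (0.97), Fdft1 (0.86), Dhcr7 (0.84), Nsdhl (0.82), Cyp51 (0.72), Sc5d (0.45), Ebp (0.40) and Lss (0.33), as log2 fold changes. The control genes of the pathway were also higher: Insig1, which holds the SREBP factors back in the endoplasmic reticulum, by 0.61, and Srebf2, which encodes SREBP2, by 0.50. The sterol carrier Stard4 was higher by 0.43. Genes not called included Mvd (0.44 ± 0.13, adjusted p = 0.0671 by edgeR but 0.0255 by DESeq2), Mvk (0.29), Pmvk (0.27) and Hsd17b7 (0.27). The calls of Ebp and Lss each ended when some single sample was left out. Idi1 shares its place in the files with Wdr37 on the other strand and Tm7sf2 with Vps51 on the same strand, so reads there could belong to either gene. Outside the list, and named after its values were seen, Acat2, which supplies acetoacetyl-CoA to the pathway, was higher by 0.84 ± 0.09 (adjusted p = 2.73e-05). Against MI, the log2 fold changes of Msmo1 were 0.79 for Lip-1+MI and -0.54 for Fer-1+MI, and those of Idi1 were 0.66 for Lip-1+MI and -0.42 for Fer-1+MI, with all 4 adjusted p at 0.0013 or less. Over the 24 genes the median log2 distance of a sample above the Fer-1+MI mean was 0.66, 0.74 and 0.60 in Lip-1+MI, 0.16, 0.08 and 0.10 in MI, and 0.54, 0.64 and 0.68 in Sham.

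**Figure D3:**
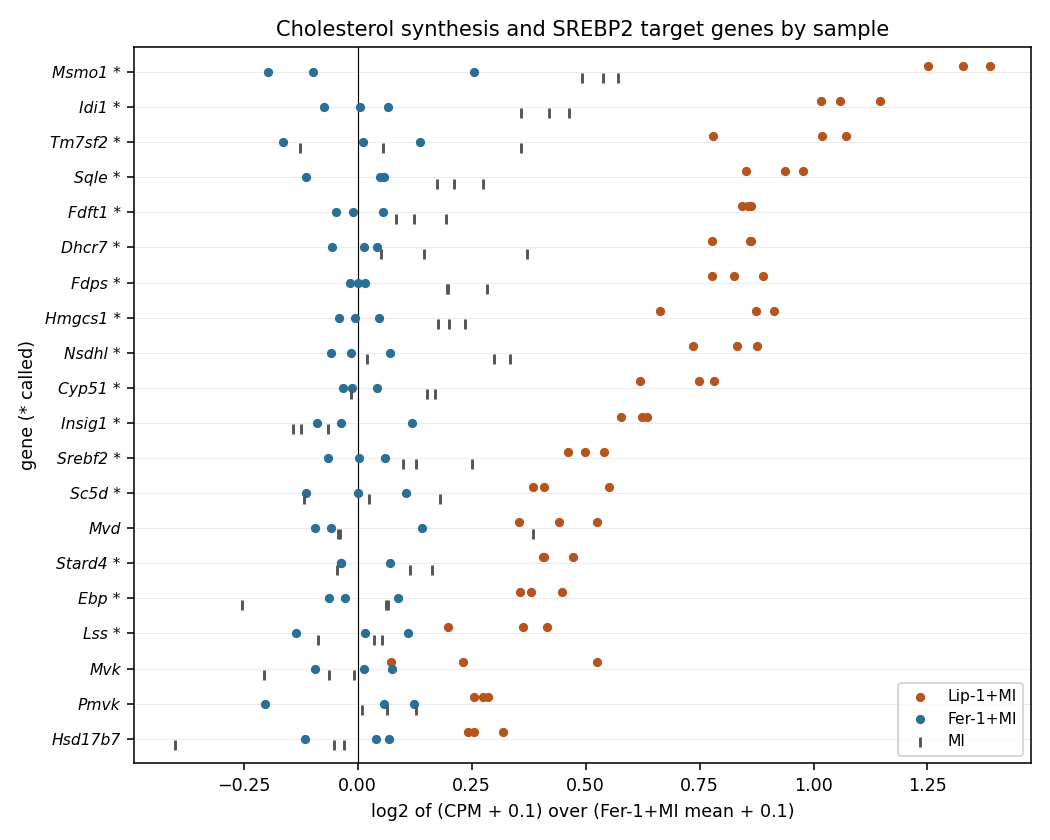
Each row is a cholesterol synthesis or SREBP2 target gene, and points are samples as log2 of CPM over the Fer-1+MI mean, with 0.1 added to both; ticks show MI samples. Lip-1+MI lies to the right of Fer-1+MI without overlap in 19 of the 20 genes shown, Mvk being the exception, and asterisks mark the 16 of them that were called.

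Genes of fatty acid synthesis and desaturation were higher too. Of 16 listed LXR (liver X receptor) targets and fatty acid synthesis genes, 7 were higher in Lip-1+MI and none was lower (median 0.21). That made 43.8% called, against 3.15% of all genes. Scd, a stearoyl-CoA desaturase that puts the double bond into saturated fatty acids, had 16.3, 15.9 and 15.1 CPM in Lip-1+MI, against 7.42, 6.42 and 7.55 CPM in Fer-1+MI (1.14 ± 0.16, adjusted p = 0.00028). Its paralog Scd2 had 718, 751 and 585 CPM in Lip-1+MI, against 443, 401 and 448 CPM in Fer-1+MI (0.67 ± 0.09, adjusted p = 0.0017). Reads could be split between these close copies, so their single values are uncertain, although both moved in the same direction. The polyunsaturated fatty acid desaturases Fads1 (0.50) and Fads2 (0.40), the fatty acid synthase Fasn (0.48), the citrate lyase Acly (0.38) and Srebf1 (0.34), which encodes the SREBP1 factor, completed the 7. The cholesterol exporters, classical targets of the liver X receptor, were not called. Abca1 had 214, 193 and 195 CPM in Lip-1+MI, against 227, 220 and 225 CPM in Fer-1+MI (-0.16 ± 0.05, adjusted p = 0.068, but called lower by DESeq2 at 0.0213), and Abcg1 (-0.11 ± 0.08), Mylip (0.01 ± 0.10) and the receptor genes Nr1h2 (-0.04 ± 0.05) and Nr1h3 (-0.30 ± 0.18) were not called.

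Lysosomal genes were higher by small amounts. Of 32 tested gene models of lysosome enzymes and membrane proteins, 10 were higher in Lip-1+MI and none was lower (median 0.15). This was 31.2% called, against 3.15% of all genes. Without overlap, 22 lay above Fer-1+MI, where 9.88% of all genes did, and 4 below it, where 8.91% did. Ctsl, the protease cathepsin L, had 1442, 1420 and 1477 CPM in Lip-1+MI, against 1164, 1083 and 1133 CPM in Fer-1+MI (0.36 ± 0.04, adjusted p = 7.67e-05). Npc2, which carries cholesterol inside the lysosome, had 308, 300 and 309 CPM in Lip-1+MI, against 248, 241 and 247 CPM in Fer-1+MI (0.32 ± 0.04, adjusted p = 0.00016). Asah1, the acid ceramidase, was higher by 0.39 ± 0.06 (adjusted p = 0.0013), and Naglu (0.31), Gusb (0.29), Lamp1 (0.26), Tpp1 (0.24), Ppt1 (0.21), Gaa (0.20) and Cd63 (0.19) were also called. Tfeb, the transcription factor of this gene set, was not called (-0.16), nor were the cathepsins Ctsb (0.03) and Ctsd (0.13, though called higher by DESeq2, adjusted p = 0.0111). Asah1 overlaps Pcm1 on the other strand in the files, and the calls of Cd63, Gaa and Ppt1 each ended when some single sample was left out. Of 15 genes of the proton pump that acidifies lysosomes, 5 were higher by about 0.2 and none was lower (33.3% called). The 5 were Atp6v1a, Atp6v1b2, Atp6v1d, Atp6v1e1 and Atp6ap2, but only 1 remained called without Lip-1+MI replicate 1. Of 20 autophagy genes, 3 were higher (15.0% called, against 3.15% of all genes). They were the cargo receptors Tax1bp1 (0.22) and Optn (0.21) and the membrane protein Gabarap (0.20). The call of Optn ended without Lip-1+MI replicate 2 or Fer-1+MI replicate 2.

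Fatty acid oxidation, the main fuel pathway of the adult heart, ran the other way. Of 30 genes tested, 14 were lower in Lip-1+MI and none was higher (median -0.28). This was 46.7% called, against 3.15% of all genes. Without overlap, 21 lay below Fer-1+MI, where 8.91% of all genes did. Pdk4, the kinase that shuts glucose carbon out of the mitochondrion when fat is burnt, had 7.15, 7.43 and 11.1 CPM in Lip-1+MI, against 23.1, 27.3 and 24.6 CPM in Fer-1+MI (log2 fold change -1.55 ± 0.14, adjusted p = 6.44e-06). Replicate 3 was the highest Lip-1+MI sample of Pdk4. Cpt1b, which starts the import of fatty acids into muscle mitochondria, had 78.3, 82.8 and 78.4 CPM in Lip-1+MI, against 117, 137 and 110 CPM in Fer-1+MI (-0.61 ± 0.08, adjusted p = 0.000321). Angptl4, a secreted lipase inhibitor and a target of the PPAR lipid sensors, had 486, 446 and 532 CPM in Lip-1+MI, against 741, 719 and 716 CPM in Fer-1+MI (-0.57 ± 0.09, adjusted p = 0.00457). The groups did not overlap in any of these 3 genes.

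Further called genes of this list were the thioesterase Acot2 (-0.54), the uncoupling protein Ucp2 (-0.49), the beta-oxidation enzymes Acadvl (-0.35), Acaa2 (-0.33), Hadh (-0.30), Acadl (-0.28) and Hadhb (-0.17), the carnitine enzyme Cpt2 (-0.31), the electron carrier Etfdh (-0.30) and the lipid droplet protein Plin2 (-0.19). Genes not called included the regulators Ppara (0.20) and Ppargc1a (-0.11), and Acadm (-0.17) and Cpt1a (-0.46, though called lower by DESeq2, adjusted p = 0.000454). Plin5, a lipid droplet protein, had 0.296 to 0.363 CPM in Lip-1+MI and 0.708 to 0.972 CPM in Fer-1+MI and was not called by edgeR (-1.33 ± 0.39, adjusted p = 0.0765), but limma on log2(FPKM + 1) called it lower (adjusted p = 0.0414). Cpt1b overlaps Chkb and Acadvl overlaps Mir324 in the files, and Acot2 has a close paralog in Acot1. Outside the list, and named after its values were seen, Acsl1, which activates long fatty acids, was lower (-0.63 ± 0.08, adjusted p = 0.000205). The calls of Acadl, Acot2, Cpt2, Hadh, Hadhb and Plin2 each ended when some single sample was left out. The count of 14 fell to 9 without Lip-1+MI replicate 1 or Lip-1+MI replicate 2, to 8 without Fer-1+MI replicate 2, and to 9 when only the 6 samples of the pair were fitted. Against MI, Pdk4 had log2 fold changes of -0.98 for Lip-1+MI (adjusted p = 0.0005) and 0.57 for Fer-1+MI (adjusted p = 0.025). For Lip-1+MI the same values were -0.48 for Cpt1b (adjusted p = 0.0014) and -0.53 for Angptl4 (adjusted p = 0.0044). For Fer-1+MI they were 0.13 for Cpt1b (adjusted p = 0.43) and 0.04 for Angptl4 (adjusted p = 0.88). None of 32 nuclear-encoded respiratory chain gene models was called by edgeR, by DESeq2 or at an unadjusted p under 0.05. Of 19 glycolysis genes edgeR called 1 higher (Pfkp, 0.21) and DESeq2 2; the call of Pfkp ended without Lip-1+MI replicate 1 or 2 or Fer-1+MI replicate 3 (adjusted p of 0.0698 to 0.0738).

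**Figure D4:**
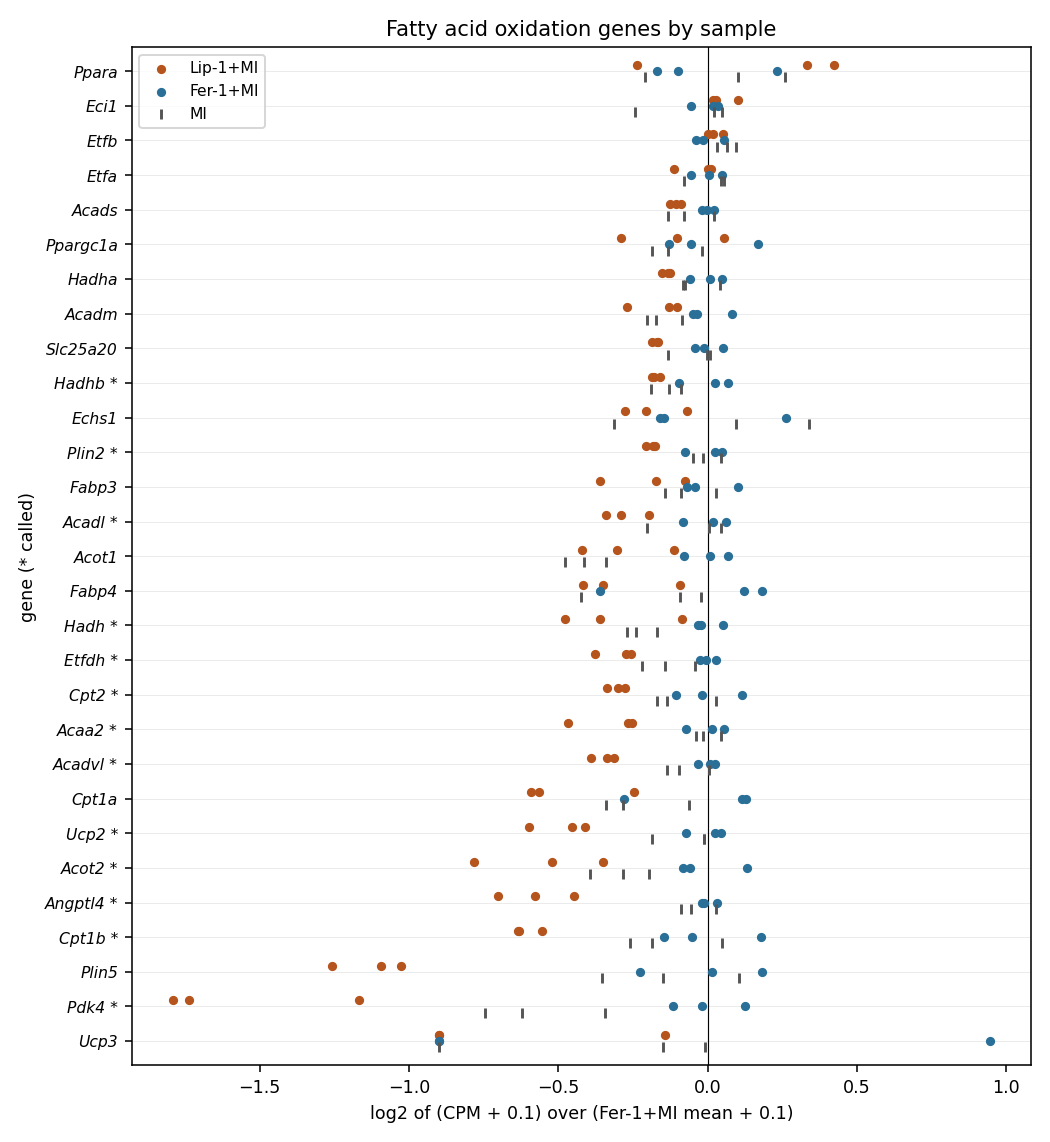
Each row is a fatty acid oxidation gene, and points are samples as log2 of CPM over the Fer-1+MI mean, with 0.1 added to both; ticks show MI samples. The 13 genes with asterisks, of 29 shown, were called lower in Lip-1+MI, from Pdk4 (-1.55) to Hadhb (-0.17), while Ppara, Eci1, Etfa and Etfb lie on both sides of 0.

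Genes of ferroptosis itself differed in both directions. Of 31 ferroptosis genes 3 were higher and 2 lower in Lip-1+MI (median -0.03), which is 16.1% called, against 3.15% of all genes. Gpx4 had 51.8, 79.0 and 76.1 CPM in Lip-1+MI, against 63.3, 58.2 and 62.6 CPM in Fer-1+MI, so that the groups overlapped (log2 fold change 0.17, 95% interval -0.18 to 0.52, adjusted p = 0.708). Gpx4 overlaps Sbno2 on the other strand in the files. Acsl4, which loads membranes with the lipids that oxidise, had 134, 128 and 134 CPM in Lip-1+MI, against 129, 123 and 126 CPM in Fer-1+MI (0.07, interval -0.03 to 0.17, adjusted p = 0.568). Ptgs2, often used as a readout of ferroptosis, had 361, 323 and 373 CPM in Lip-1+MI, against 300.1, 283 and 276 CPM in Fer-1+MI. The groups did not overlap, but Ptgs2 was not called in the fit of all 12 samples (0.30, interval -0.18 to 0.78, adjusted p = 0.604) and was called when only the 6 samples of the pair were fitted (adjusted p = 0.0156). Aifm2, which regenerates reduced coenzyme Q, had 23.7, 23.2 and 22.6 CPM in Lip-1+MI and 23.3, 27.1 and 29.5 CPM in Fer-1+MI and was not called (-0.20 ± 0.08).

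The 3 ferroptosis genes higher in Lip-1+MI were Nqo1, Acsl3 (0.34 ± 0.06, adjusted p = 0.0056), which activates monounsaturated fatty acids, and Nfe2l2 (0.19 ± 0.05, adjusted p = 0.029), which encodes the antioxidant factor Nrf2. The 2 lower genes serve glutathione synthesis. Gclc, the catalytic subunit of its first enzyme, had 187, 181 and 178 CPM in Lip-1+MI, against 247, 231 and 225 CPM in Fer-1+MI (-0.37 ± 0.05, adjusted p = 0.00024). Slc7a11, the cystine importer, had 12.9, 11.7 and 11.8 CPM in Lip-1+MI, against 16.2, 15.0 and 17.6 CPM in Fer-1+MI (-0.42 ± 0.10, adjusted p = 0.0257). In both genes every Lip-1+MI sample was below every Fer-1+MI sample. Nqo1, Gclc, Slc7a11 and Hmox1 are all known targets of Nrf2, and here Nqo1 was higher while the other 3 were lower. Of 35 further glutathione transferase and antioxidant genes none was higher and 2 were lower, catalase (Cat, -0.37) and Gsta4 (-0.43). That is 5.71% called, not far from the 3.15% of all genes. The calls of Slc7a11 and Nfe2l2 ended under 6 and 8 of the 21 alternatives, among them leaving out Lip-1+MI replicate 2 (adjusted p = 0.109 and 0.168).

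Among 24 iron genes 2 were higher and 3 lower in Lip-1+MI (median -0.02), which is 20.8% called, against 3.15% of all genes. Hmox1, which breaks down haem and frees its iron, had 824, 807 and 779 CPM in Lip-1+MI, against 1246, 1147 and 1128 CPM in Fer-1+MI (-0.55 ± 0.05, adjusted p = 4.36e-06). Slc40a1, the iron exporter ferroportin, had 12.3, 12.5 and 11.5 CPM in Lip-1+MI, against 15.4, 19.01 and 19.2 CPM in Fer-1+MI (-0.57 ± 0.11, adjusted p = 0.00764). A second gene model described as ferroportin in the files, NEWGENE_620180, was lower (-0.53 ± 0.09, adjusted p = 0.00174), and reads could be split between the pair. Tfrc, the transferrin receptor that brings iron in, had 74.4, 78.6 and 73.6 CPM in Lip-1+MI, against 56.7, 61.8 and 59.6 CPM in Fer-1+MI (0.35 ± 0.06, adjusted p = 0.00264). Every Lip-1+MI sample was below every Fer-1+MI sample for Hmox1 and Slc40a1 and above for Tfrc. Alas1, the first enzyme of haem synthesis, was higher (0.22) and the copper oxidase Cp lower (-0.26) (log2 scale). The call of Cp ended without Lip-1+MI replicate 1 or 2 or Fer-1+MI replicate 3, and that of Alas1 without Lip-1+MI replicate 2 (adjusted p = 0.0508). Ferritin was not called: Fth1 had 2701, 2679 and 2724 CPM in Lip-1+MI and 3123, 2981 and 2835 CPM in Fer-1+MI (-0.14, interval -0.24 to -0.04, adjusted p = 0.142), and Ftl1, which has near-identical copies in the files, had -0.04. Fth1 overlaps Best1. Ncoa4, which hands ferritin to the lysosome, had a log2 fold change of -0.00 ± 0.05. Against MI, Hmox1 had log2 fold changes of -0.21 for Lip-1+MI (adjusted p = 0.024) and 0.34 for Fer-1+MI (adjusted p = 0.00049).

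Some endothelial markers were lower in Lip-1+MI. Of 11 tested, 4 were lower, none was higher and 7 were not called (median -0.19), which is 36.4% called, against 3.15% of all genes. Without overlap, 4 markers lay below Fer-1+MI, where 8.91% of all genes did, and 1 above it, where 9.88% did. Vwf, the von Willebrand factor, had 36.7, 38.8 and 38.7 CPM in Lip-1+MI, against 65.9, 64.0 and 69.1 CPM in Fer-1+MI (-0.80 ± 0.06, adjusted p = 2.16e-07). Kdr, the main receptor for VEGF, had 40.7, 36.0 and 40.2 CPM in Lip-1+MI, against 52.3, 52.1 and 53.8 CPM in Fer-1+MI (-0.44 ± 0.06, adjusted p = 0.000148), and Emcn (-0.79) and Eng (-0.19) were also lower. Flt1 (0.15), Tie1 (-0.10), Esam (-0.08), Tek (-0.21, called lower without Lip-1+MI replicate 3), Egfl7 (-0.19) and Cdh5 (-0.24) were not called. Summed over the list, the markers came to 150 to 160 FPKM in Lip-1+MI and 175 to 180 FPKM in Fer-1+MI, and the group ranges did not overlap; Cldn5 averaged 0.12 CPM in Fer-1+MI and was not called (0.06). For the markers that were lower, fewer endothelial cells and less RNA per cell cannot be told apart in tissue RNA. Against MI, Vwf had log2 fold changes of -0.71 for Lip-1+MI (adjusted p = 1e-06) and 0.09 for Fer-1+MI (adjusted p = 0.43), and Kdr -0.16 for Lip-1+MI (adjusted p = 0.12) and 0.28 for Fer-1+MI (adjusted p = 0.0055).

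Dhrs3, Cyp26b1 and Aox1, which handle retinoids, were lower in Lip-1+MI. A list of 25 retinoid genes was drawn up after their values had been seen, so its count is only a description. Of 23 tested, 3 were lower and none was higher (13.0% called, against 3.15% of all genes). Dhrs3, a retinaldehyde reductase, had 6.87, 5.51 and 6.43 CPM in Lip-1+MI, against 15.5, 14 and 15.2 CPM in Fer-1+MI (-1.25 ± 0.12, adjusted p = 5.4e-06). Cyp26b1, which degrades retinoic acid, had 90.7, 92.0 and 88.0 CPM in Lip-1+MI, against 150.1, 156 and 137 CPM in Fer-1+MI (-0.71 ± 0.06, adjusted p = 1.81e-06). Aox1, an aldehyde oxidase, had 6.91, 7.00 and 8.02 CPM in Lip-1+MI, against 12.1, 11.6 and 12.6 CPM in Fer-1+MI (-0.73 ± 0.10, adjusted p = 0.00037). All Lip-1+MI samples were below all Fer-1+MI samples in these genes. Against MI the log2 fold changes of Dhrs3 were -0.33 for Lip-1+MI (adjusted p = 0.14) and 0.92 for Fer-1+MI (adjusted p = 0.00016), and those of Cyp26b1 were -0.16 for Lip-1+MI (adjusted p = 0.17) and 0.55 for Fer-1+MI (adjusted p = 4e-05). The receptors Rara (-0.08), Rarb (-0.20) and Rarg (-0.09) and the synthetic enzyme Aldh1a2 (-0.26, adjusted p = 0.0554) were not called by edgeR; DESeq2 called Aldh1a2 lower (adjusted p = 0.0204).

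Contractile, matrix and growth factor genes held calls in both directions. Of 16 smooth muscle contractile genes 5 were higher and 1 lower, which is 37.5% called, against 3.15% of all genes. Des, the muscle filament desmin, had 3528, 3730 and 3319 CPM in Lip-1+MI, against 2930, 2829 and 2545 CPM in Fer-1+MI (0.35 ± 0.05, adjusted p = 0.00091), and Acta2, smooth muscle actin, was higher by 0.33, while the kinase gene Mylk was lower (-0.33). The count of 5 fell to 2 without Lip-1+MI replicate 1 or 2 and to 3 without Fer-1+MI replicate 2. Grem1, a secreted inhibitor of BMP signals, had 34.6, 44.1 and 35.7 CPM in Lip-1+MI, against 18.97, 16.6 and 16.03 CPM in Fer-1+MI (1.15 ± 0.10, adjusted p = 1.81e-06). Its log2 fold changes against MI were 0.30 for Lip-1+MI (adjusted p = 0.094) and -0.85 for Fer-1+MI (adjusted p = 6.4e-05). Tgfb3 (0.42) and Tgfb2 (0.31) were also higher. With Grem1 they made 3 of 24 genes (12.5%) of TGF-beta and BMP signalling, and none of that list was lower. The matricellular genes Ccn3 (0.52), Ccn5 (0.46) and Thbs1 (0.23) were higher, 3 of 17 genes (17.6%) of their list, and none of it was lower. The insulin-like growth factor Igf2 (-0.36) and its binding proteins Igfbp3 (-0.44) and Igfbp4 (-0.48) were lower. They were 3 of 10 genes (30.0%) of their list, and none of it was higher. Among 18 collagens (22.2% called) Col8a2 (0.30) and Col5a3 (0.35) were higher, and Col3a1 (-0.29) and Col14a1 (-0.17) lower. Of the heart's own genes, Nppa, the atrial natriuretic peptide, was higher by 0.26 ± 0.06, with 4885, 5464 and 4802 CPM in Lip-1+MI, against 4305, 4518 and 3855 CPM in Fer-1+MI. The calcium pump Atp2a2 (-0.26), Hrc (-0.60), Mb (-0.63) and Ckm (-0.41) were lower. Their lists as a whole did not fall. Of 24 sarcomere genes 2 were higher and 2 lower (16.7% called, median -0.02). Of 20 natriuretic peptide and calcium handling genes 1 was higher and 2 lower (15.0% called, median 0.02). The channel genes Kcnj2 (-0.50), Kcnj8 (-0.43) and Abcc9 (-0.24) were lower and the connexin gene Gja5 higher (0.54), whereas Gja1, the main ventricular connexin, was not called (0.08). In all, 1 of 29 channel, connexin and conduction genes was higher and 4 were lower (17.2% called). The calls of Nppa, Atp2a2, Mb, Ckm, Kcnj2, Kcnj8, Abcc9, Col3a1, Col14a1, Col5a3, Mylk and Tgfb2 each ended when some single sample was left out.

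The other largest differences fell outside these lists. Tppp3, a tubulin-binding protein, had 10.02, 7.43 and 11.0 CPM in Lip-1+MI, against 3.05, 4.04 and 3.37 CPM in Fer-1+MI (1.44 ± 0.16, adjusted p = 3.41e-05), and the files place a gene model on the strand opposite to it. Rgs9 (1.22) and Il12a (1.15) were also higher, with at most 2.82 and 3.74 CPM in Lip-1+MI. Among the falls, Gstt3, a glutathione transferase, had 2.86, 2.88 and 3.44 CPM in Lip-1+MI, against 7.46, 6.32 and 7.78 CPM in Fer-1+MI (-1.23 ± 0.13, adjusted p = 1.56e-05). Ccl11, the eosinophil chemokine eotaxin, had 5.30, 4.74 and 5.77 CPM in Lip-1+MI, against 11.3, 11.8 and 10.2 CPM in Fer-1+MI (-1.08 ± 0.11, adjusted p = 1.55e-05). In both genes the groups stood clear of each other. Trim80 (-2.46), Gdf5 (-1.54), Aqp7 (-1.29) and Oit3 (-1.22) were low in all 6 samples, at most 3.44 CPM. The calls of Rgs9, Il12a, Trim80, Aqp7 and Oit3 each ended when some single sample was left out.

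Lists of inflammation and stress genes held few calls or none, with shares of up to 9.09%, against 3.15% of all genes. None of 16 cytokine genes, 15 NF-kappaB genes, 16 hypoxia-inducible genes and 20 immediate early genes was called by edgeR or by DESeq2, with 1, 2, 1 and 3 genes at an unadjusted p under 0.05, where 14.6% of all genes were. Il6, for instance, had a log2 fold change of 0.08 and Il1b one of 0.04. Of 17 listed chemokine ligands 1 was called, Cxcl12 (-0.36); Ccl11 is not on that list and was lower by more (-1.08). Il12a, likewise outside the cytokine list, was higher (1.15). Of 26 interferon genes 1 was called, Ifit3 (0.68), whose call ended without any of the 3 Lip-1+MI samples in turn. Arg1, the arginase of repair-type macrophages, was lower (-0.54), the only call among 11 nitric oxide, arginine and itaconate genes (9.09%). Of 22 complement and acute-phase gene models 1 was higher and 1 lower (9.09%), and both calls ended when some single sample was left out. Without overlap, 1 of the 22 lay above Fer-1+MI, where 9.88% of all genes did, and 6 below it, where 8.91% did. None of 16 macrophage and monocyte markers was called by edgeR (3 at an unadjusted p under 0.05, 2 called by DESeq2), and their summed level was 561 to 579 FPKM in Lip-1+MI and 565 to 582 FPKM in Fer-1+MI. Summed cardiomyocyte markers came to 15410 to 17510 FPKM in Lip-1+MI and 14310 to 16380 FPKM in Fer-1+MI, and fibroblast markers to 3484 to 3570 FPKM in Lip-1+MI and 3577 to 3969 FPKM in Fer-1+MI. Mural cell markers came to 2681 to 3018 FPKM in Lip-1+MI and 2222 to 2349 FPKM in Fer-1+MI. But of the 9 markers 2 were higher (Acta2 and Des) and 3 lower (Abcc9, Kcnj8 and Notch3), and the median log2 fold change was 0.01. That was 55.6% called, against 3.15% of all genes. The call of Notch3 (-0.28) ended when most single samples were left out. The part of these cell mixtures in the other differences was not tested.

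**Figure D5:**
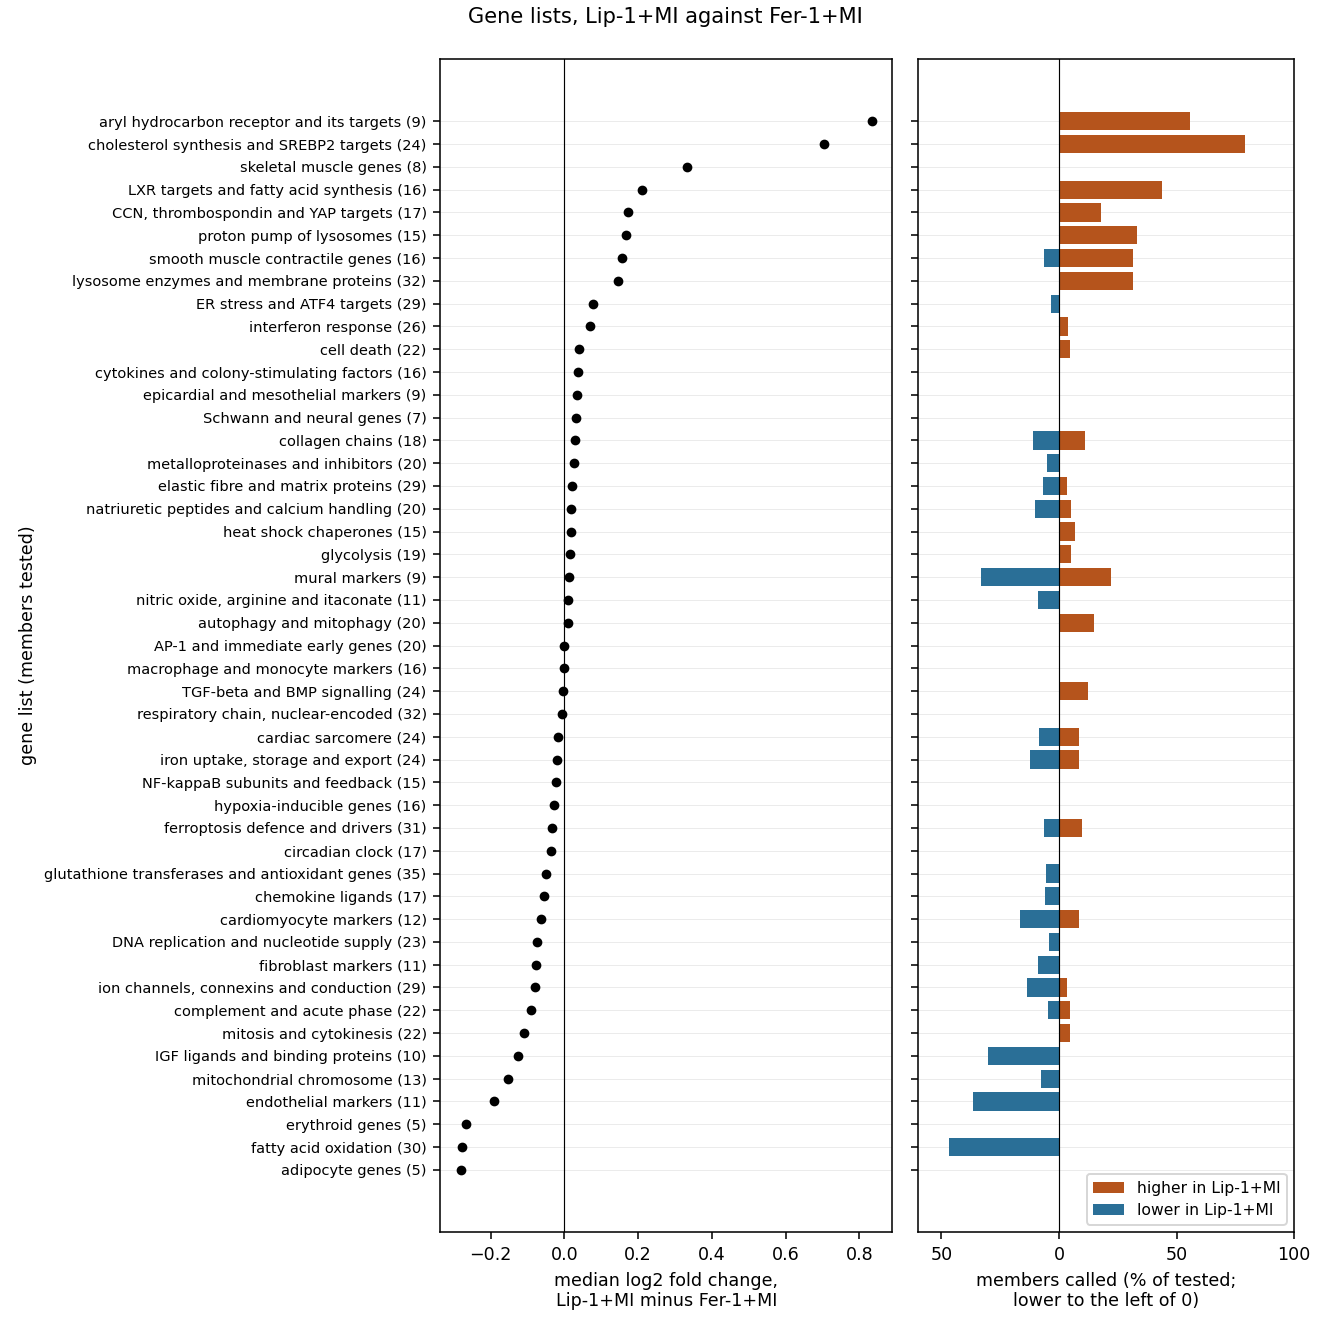
Rows are the gene lists with at least 5 members tested (number in brackets), sorted by the median log2 fold change of the members, Lip-1+MI minus Fer-1+MI, on the left; bars on the right give the percentage of members called higher and lower. The aryl hydrocarbon receptor (0.83) and cholesterol (0.70) lists stand apart at the top, and fatty acid oxidation (-0.28) has the largest share of members called lower.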

How the data were processed

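The authors deposited whole-number counts per gene and FPKM values per gene, the FPKM adjusted by the authors for length and depth. Libraries were stranded, made from poly(A) RNA of integrity number above 7 and read as 150 bp pairs, per the labels' protocols. The submitters' processing notes name HISAT2 2.2.1, StringTie 2.1.6, cutadapt 1.9, FastQC, edgeR and DESeq2; order, build and strand use in counting are not given in the sources used here. Symbols came from the FPKM table by gene identifier.

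Of 32623 genes, 10070 were at 0 in every sample, and edgeR's filterByExpr (minimum count 10, minimum total 15) kept 16910. TMM-scaled counts of all 12 samples were tested in 1 fit (edgeR 4.0.16, R 4.3.3, robust quasi-likelihood F test, group as the only term), and p-values were adjusted over all genes (Benjamini-Hochberg) at 0.05. Values in CPM use TMM-scaled library sizes. The groups' depths put 3 counts at 0.0515 to 0.0662 CPM in the 6 samples, for counting error only. The tests were checked on simulated data.

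The genes named were the 10 largest rises and 10 largest falls with at least 1 CPM and no overlap, the 10 next smallest p-values, up to 3 called genes per list and direction, and 15 genes always given; further list members were named after their values were seen. Of these and the list members, 6 genes are counted in the totals but not reported here by name. The members and lists (49 lists, 925 entries, 39 not found and not analysed here) were chosen with earlier results of these data known. Lists were given by counts and medians, with no set test. Alternatives were library-size scaling, DESeq2 size factors, other filters, DESeq2 1.42.0, limma 3.58.1 on log2(FPKM + 1) and log2(FPKM + 0.1), the 6 samples alone, a replicate block and each sample left out.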

Additional observations from a re-analysis of the deposited data

How the results depend on the processing

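The 533 differing genes (295 higher and 238 lower in Lip-1+MI) became 335 (172 higher, 163 lower) with limma on log2(FPKM + 1) and 338 (174 higher, 164 lower) with log2(FPKM + 0.1); the 31 genes at 2-fold or more became 7 with log2(FPKM + 1), where the pseudocount shrinks the fold of low genes. With 1 sample left out, the calls ranged from 304 to 552, those higher from 170 to 305, those lower from 134 to 250, and those at 2-fold or more from 23 to 39. Other settings gave 406 (6 samples only) to 776 calls (DESeq2). None of the 533 genes changed sign under any alternative. Of 100 called genes that the naming rule gave, 58 kept the call under all 21 alternatives; Ptgs2 gained one with the 6 samples only, and the uncalled Ftl1 changed sign without Fer-1+MI replicate 1 (adjusted p = 0.92), with log2 fold changes of -0.0837 to 0.0253 over the fits without 1 sample. Of 36 further called genes in the text, 23 kept the call under all 21. The causes were not tested. Lysosomal genes called higher numbered 16 with DESeq2, against 10, and proton pump genes 9, against 5.

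The replicate numbers are in the labels. Samples with the same number deviated together weakly or not at all (r from -0.0236 to 0.0879 over 18 pairs). Still, 9 of 12 samples correlated best with their own number, and the fit with a replicate block called 676 genes, against 533. Whether samples with the same number share more than the number was not tested. Depth limits low genes: 7 of the 533 called genes averaged under 1 CPM in their higher group.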
